A study of Mus musculus with 2 samples.

Results

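Transcripts of 9 myelin genes were followed in microglia of the demyelinating corpus callosum. The genes were Mbp, Mog, Mag, Mobp, Cnp, Mal, Cldn11, Cryab and Ermn, taken by symbol, and all 9 are among the 27998 genes of the files. Single microglia were compared with barcodes that hold almost no RNA, and the medial with the lateral corpus callosum. Single-cell RNA-seq was done on 2 libraries of sorted microglia, of which 1 came from the medial part of the corpus callosum and 1 from its lateral part. Both came from mice given cuprizone for 4 weeks, of strain C57Bl6 with the genotype label CX3CR1. Cuprizone binds copper, and when fed to mice it makes oligodendrocytes die and white matter lose its myelin. The medial and lateral libraries share this treatment, so no mouse without cuprizone is at hand. The allele, the ages, the number of mice per library and the sort gate were not given in the sources used here.

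Myelin is the wrapped membrane that oligodendrocytes lay around axons, compacted by Mbp and sealed and anchored by a set of membrane proteins. Microglia engulf myelin debris, and RNA of a lysed cell can also end up free in the suspension from which droplets are made. Some genes known from myelin are used outside it as well: Mbp shares its locus with Golli transcripts known from immune cells, Cnp makes a phosphodiesterase found in many tissues, and Cryab is a stress-induced small heat shock protein.

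Mbp, Mag, Cnp and Cryab transcripts were found in both libraries, spread thinly over many cells. Mog, Mobp, Mal and Ermn had 0 unique molecular identifiers (UMIs) in all cells of both libraries, and Cldn11 had 1 UMI in each library. The level of Mbp, Mag and Cryab relative to all UMIs was close to that in near-empty barcodes. The summed level of 15 neuron markers was lower in cells, at 0.176 (0.132 to 0.236) times that in near-empty barcodes of the medial library. In the lateral library the ratio was 0.0900 (0.0737 to 0.110). Not all of these markers were far lower, as Rbfox3 was nearer to its level in near-empty barcodes. Hba-a1 of red cells had 0 UMIs in the cells. The medial and lateral libraries held the detected genes at like levels.

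A cell was a barcode with at least 2400 UMIs, of which at most 10% came from mitochondrially encoded genes. The medial library gave 2131 cells with a median of 10732 UMIs and the lateral library 2308 cells with a median of 9694 UMIs, and 7 cell barcodes occurred in both. Low barcodes, those with at most 50 UMIs, numbered 285102 in the medial library and 296403 in the lateral one and held 2336763 and 2568932 UMIs. Levels are UMIs per 1000000 UMIs of the compartment (CPM), with exact Poisson 95% intervals, and shares of cells have exact Clopper-Pearson 95% intervals. Counting error is all that these intervals cover. As each region has 1 library, there was no test, and no p-value is given.

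The cells carried microglial markers. All 15 microglial marker genes were measured, and their summed level was 423 UMIs per 10000 in medial cells and 434 in lateral cells. C1qa, a complement subunit that microglia make in bulk, was found in 100% of the cells of either library. In the low barcodes the same 15 genes summed to 408 UMIs per 10000 in the medial library and to 416 in the lateral one, so low barcodes held microglial markers at nearly the level of cells.

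The sequence just upstream of a gene's start is where its transcription is set, and it is shown for the 3 genes that mark the span of these results. Cnp was the only member whose ratio of cells over low barcodes had an interval above 1 in both libraries, Mag did not differ beyond counting error between cells and low barcodes, and Mobp had 0 UMIs in cells. The sequences are the 250 bases before the RefSeq start on GRCm38.p6, 5′ to 3′ in the direction of the gene, with GAGGAA in capitals on either strand. GAGGAA is a core that ETS factors such as PU.1, on which microglia depend, can bind. For Mag, which has several starts, the sequence is that of the one listed first.
Cnp, chr11:100574689-100574938, plus strand: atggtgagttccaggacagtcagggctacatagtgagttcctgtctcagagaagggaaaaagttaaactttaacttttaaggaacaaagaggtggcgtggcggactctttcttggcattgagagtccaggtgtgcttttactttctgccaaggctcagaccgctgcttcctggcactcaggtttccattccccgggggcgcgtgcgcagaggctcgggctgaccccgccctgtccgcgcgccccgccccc
Mag, chr7:30914864-30915113, minus strand: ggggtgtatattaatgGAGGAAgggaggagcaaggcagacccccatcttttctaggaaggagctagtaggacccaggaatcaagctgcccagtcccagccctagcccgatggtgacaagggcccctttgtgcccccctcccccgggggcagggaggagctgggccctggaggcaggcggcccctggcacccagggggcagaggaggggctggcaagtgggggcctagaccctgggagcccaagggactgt
Mobp, chr9:120149492-120149741, plus strand: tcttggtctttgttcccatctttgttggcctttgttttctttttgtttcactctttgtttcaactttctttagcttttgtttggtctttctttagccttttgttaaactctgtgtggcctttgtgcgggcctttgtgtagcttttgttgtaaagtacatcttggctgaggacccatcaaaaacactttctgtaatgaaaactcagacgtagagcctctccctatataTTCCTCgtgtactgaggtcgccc
RefSeq starts were given for 7 of the 9 genes. GAGGAA lay 234 bases before the start of Mag listed first, and 23 bases before the start of Mobp as TTCCTC, its reverse complement. The same letters lay 175 bases before another Mag start, and the window of the remaining Mag start held none. GAGGAA was absent from the windows of Cnp, Mog, Mal, Cldn11 and Ermn. Of all 32851 promoter windows of the same length, 23.3% held it on either strand. GAAANNGAA, letters of the interferon-stimulated response element, were in 7.13% of all windows and in none of the 7 genes' windows, and TATAAA was in 12.4% of all and in none of the 7. The window of Cnp held 13 CG pairs at 57.2% G and C, that of Mag 3 at 66% and that of Mobp 4 at 40.8%, while the median window held 6 at 52.4%. The motifs were chosen after the values were seen, and a match of letters is no binding site.

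Mbp, the basic protein that glues the inner faces of the myelin membrane together, lies on chr18:82475146-82585637 on the plus strand of GRCm38. It had 273 UMIs in 252 medial cells and 288 UMIs in 257 lateral cells. That is 11.6 CPM (10.3 to 13.1) in medial and 12.5 CPM (11.1 to 14.0) in lateral cells. An Mbp UMI was thus found in 11.8% of medial cells (10.5 to 13.3) and 11.1% of lateral cells (9.88 to 12.5). The low barcodes held 30 Mbp UMIs, or 12.8 CPM (8.66 to 18.3), in the medial library and 27, or 10.5 CPM (6.93 to 15.3), in the lateral library. The log2 ratio of cells over low barcodes was -0.14 (-0.69 to 0.45) in the medial library and 0.25 (-0.32 to 0.88) in the lateral one, so the sign differed and both intervals included 0.

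Mag, an adhesion protein of the innermost myelin layer facing the axon and a sialic acid-binding lectin, lies on chr7:30899176-30914873 on the minus strand. It had 286 UMIs at 12.2 CPM (10.8 to 13.7) in medial cells and 247 UMIs at 10.7 CPM (9.42 to 12.1) in lateral cells. Mag UMIs were in 11.8% of medial and 9.84% of lateral cells. The low barcodes held 31 Mag UMIs in either library, at 13.3 CPM in the medial library and 12.1 CPM in the lateral one. The ratio of cells over low barcodes was 0.920 (0.634 to 1.38) in the medial library and 0.888 (0.610 to 1.34) in the lateral one. In neither library did the level in cells differ from that in low barcodes beyond counting error.

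Cnp, the cyclic nucleotide phosphodiesterase of the cytoplasmic channels of myelin, lies on chr11:100574904-100591729 on the plus strand. It had 1114 UMIs in 823 medial cells, which is 38.6% of them, and 1095 UMIs in 806 lateral cells, which is 34.9%. The level in cells was 47.5 CPM (44.8 to 50.4) in the medial library and 47.5 CPM (44.7 to 50.4) in the lateral one. In low barcodes Cnp had 71 UMIs at 30.4 CPM (23.7 to 38.3) in the medial and 90 UMIs at 35.0 CPM (28.2 to 43.1) in the lateral library. Cnp was the only one of the 9 genes whose ratio of cells over low barcodes had an interval above 1 in both libraries, at 1.56 (1.23 to 2.02) in the medial library and 1.36 (1.09 to 1.70) in the lateral one. With low barcodes limited to at most 10 UMIs, which leaves 10 medial and 12 lateral Cnp UMIs in them, both intervals included 1. Its 3′ neighbour Dnajc7, a co-chaperone gene on the opposite strand at 63.2 CPM in medial and 64.4 CPM in lateral cells, shares 154 exonic bases with it in GENCODE M21. The use of strand in counting was not given in the sources used here, so reads from those bases may not be told apart.

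Cryab, the alpha-B crystallin chaperone, lies on chr9:50751325-50756636 on the plus strand. It had 155 UMIs at 6.61 CPM in medial cells and 129 UMIs at 5.60 CPM in lateral cells, in 5.77% and 4.85% of the cells of those libraries. The low barcodes held 15 Cryab UMIs at 6.42 CPM in the medial and 14 at 5.45 CPM in the lateral library. The ratio of cells over low barcodes was 1.03 in either library, with intervals of 0.606 to 1.88 in the medial and 0.590 to 1.93 in the lateral one. Hspb2, a muscle heat shock gene that shares 252 exonic bases with Cryab on the opposite strand, had 0 UMIs in the cells of both libraries.

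The other 5 genes were at or near 0. Mog, a surface glycoprotein of the outermost myelin layer on chr17:37010743-37023398, had 0 UMIs in cells and in low barcodes of both libraries. The same held for Mal, a membrane proteolipid of compact myelin on chr2:127633226-127656695, and for Ermn, a cytoskeletal protein of late oligodendrocytes on chr2:58045113-58052864. A count of 0 in 2131 medial cells allows a share of cells with a UMI of up to 0.141%, and in 2308 lateral cells of up to 0.130%, taken as 3 cells of the total; the upper Clopper-Pearson limits are 0.173% and 0.160%. Mobp, an abundant small basic protein of compact myelin on chr9:120149707-120181484, had 0 UMIs in cells, 0 in medial low barcodes and 1 in lateral low barcodes. Cldn11, which forms the tight junctions of the myelin sheath and lies on chr3:31149920-31164324, had 1 UMI in the medial and 1 in the lateral cells and 0 in low barcodes.

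**Figure D1:**
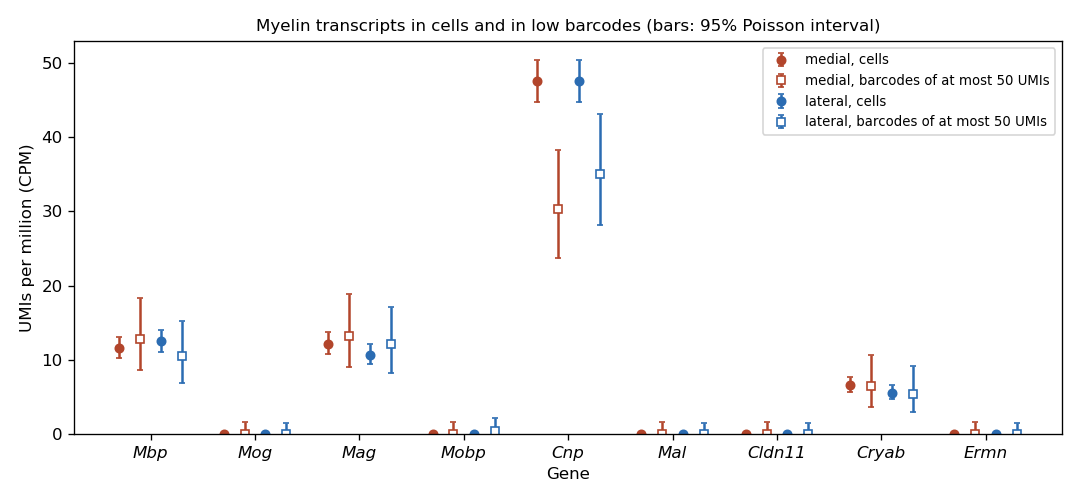
CPM (vertical axis) for the 9 myelin genes (horizontal axis) in cells (filled) and in barcodes of at most 50 UMIs (open) of the medial (red) and lateral (blue) library, with 95% Poisson intervals. The intervals of Mbp, Mag and Cryab overlap between cells and low barcodes, Cnp is higher in cells at 47.5 CPM in both libraries, and the other 5 genes lie at or near 0.

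The members were set beside all genes. A gene counted as measured with at least 30 UMIs in cells and low barcodes together, which 4 of the 9 genes reached in either library. Of these, 0 were at least 2-fold higher in cells and 0 at least 2-fold lower. Among the 10650 genes measured in the medial library, 5.78% were at least 2-fold higher and 0.873% at least 2-fold lower in cells, and among the 10648 of the lateral library 5.78% were higher and 0.958% lower. The median log2 ratio of the 4 genes was -0.04 in the medial library and 0.14 in the lateral one, beside 0.10 and 0.11 over all measured genes of those libraries.

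Some transcripts of other cell types were far lower in cells than in low barcodes. Stmn2, a microtubule regulator of neurons, had 1.11 CPM in medial cells against 11.6 CPM in medial low barcodes, and 2.08 CPM in lateral cells against 30.8 CPM in lateral low barcodes. Its ratio was 0.0960 (0.0538 to 0.171) in the medial library and 0.0677 (0.0463 to 0.0982) in the lateral one. Hba-a1, an alpha globin of red cells, had 0 UMIs in cells against 18 in medial and 21 in lateral low barcodes. Tubb3, a neuronal tubulin, and Mt3, a brain metallothionein of the astrocyte list, were picked after their values were seen. The ratio was 0.0498 in the medial library and 0.0419 in the lateral one for Tubb3, and 0.122 and 0.0590 for Mt3. Slc1a3, the gene of the astrocyte list with most UMIs, went the other way. Its ratio was 1.67 (1.29 to 2.21) in the medial library and 1.57 (1.24 to 2.02) in the lateral one. Cspg4 of the oligodendrocyte precursor list stood at 1.56 (0.993 to 2.59) and 1.70 (1.07 to 2.86). The summed ratio of the 15 neuron markers was 0.176 (0.132 to 0.236) in the medial library and 0.0900 (0.0737 to 0.110) in the lateral one, with 4 and 2 of them at 0 in cells. At 30 or more UMIs, 2 of 3 medial and 3 of 4 lateral neuron markers were at least 2-fold lower in cells. The exception was Rbfox3, a neuronal splicing factor, at ratios of 0.631 and 0.764. The summed ratio of the 9 myelin genes was 1.24 (1.05 to 1.48) and 1.20 (1.02 to 1.42), and that of the 15 microglial markers 1.04 in either library. Cnp gave 60.9% of the UMIs of the 9 genes in medial cells and 62.2% in lateral cells. No other gene of the 9 had an interval above 1, and a sum without Cnp was not made. Centring on the median gene, or taking low barcodes of at most 10 UMIs, brought the intervals of the 9 genes to include 1 in both libraries. What part free RNA, uptake or the microglia's own transcription has in the members' levels was not tested.

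Of the other marker lists, the astrocyte list of 14 genes summed to 0.464 UMIs per 10000 in medial cells against 0.428 in low barcodes, and to 0.501 in lateral cells against 0.631 in low barcodes. Most of these came from Slc1a3, a glutamate transporter, with 1006 UMIs in medial and 1027 in lateral cells, while Aqp4, the astrocyte water channel, had 0. Oligodendrocyte precursor genes summed to 0.142 and 0.136 UMIs per 10000 in medial and lateral cells, nearly all of it Cspg4 at 13.4 CPM in medial and 12.5 CPM in lateral cells. The mural list lay between 0.00896 and 0.0152 UMIs per 10000 in cells, and the ependymal, erythroid, neutrophil, T or NK and fibroblast lists at or under 0.00810. The summed ratio of cells over low barcodes was between 0.877 and 1.13 for the border macrophage and monocyte lists, between 0.822 and 0.905 for the B cell list, and 0.990 in the medial library and 1.01 in the lateral one for the endothelial list, where Bsg, a widely expressed surface glycoprotein, gave most UMIs. In medial and lateral cells the leading genes of the other lists were Fn1, a fibronectin of monocytes, at 89.5 and 96.3 CPM, the chemokine Pf4 at 24.4 and 19.5 CPM and the B cell receptor subunit Cd79b at 13.9 and 11.8 CPM. Acta2 of mural cells had 12 and 24 UMIs, S100a8 of neutrophils 14 and 11, Col1a1 of fibroblasts 1 and 6, and Foxj1 of ependymal cells and Cd3d of T cells 2 and 1 UMIs each. Whether these markers have a part in the members' levels was not tested.

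**Figure D2:**
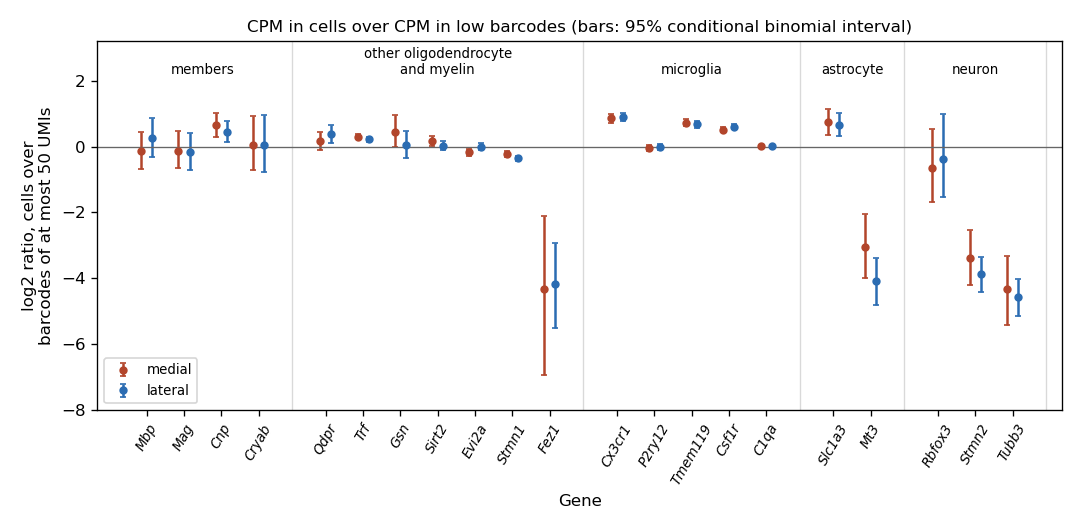
The log2 ratio of CPM in cells over CPM in barcodes of at most 50 UMIs (vertical axis) for single genes (horizontal axis), grouped by list, in the medial (red) and lateral (blue) library, with 95% conditional binomial intervals. Mbp, Mag and Cryab lie around 0 as C1qa does, while Stmn2, Tubb3, Mt3 and Fez1 lie about 3 or more log2 units lower. Rbfox3 of the neuron list lies nearer to 0, and Slc1a3 of the astrocyte list lies above 0.

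A further 36 oligodendrocyte and myelin genes were likewise split, most at or near 0 and a few near the level of low barcodes. In the cells of both libraries together, 13 of the 36 had 0 UMIs and another 16 had between 1 and 19. Olig1, a lineage transcription factor, had 2 UMIs in cells and 11 in low barcodes. Over both libraries 7 of the 36 genes reached 30 UMIs in cells and low barcodes. The 3 highest ratios of cells over low barcodes were those of Qdpr, a dihydropteridine reductase, at 1.21 (1.06 to 1.39), Trf, transferrin, at 1.20 (1.16 to 1.25), and Gsn, the actin-severing gelsolin, at 1.16 (0.944 to 1.44). The 3 lowest were those of Evi2a, at 0.943 (0.895 to 0.993), Stmn1, a tubulin-binding protein of dividing cells, at 0.803 (0.768 to 0.841), and Fez1, an axonal transport protein, at 0.0528 (0.0240 to 0.110). Within either library, 6 of the 36 genes were measured and 0 were past 2-fold in either direction.

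Cnp made up more of the members' UMIs in medial cells than in medial low barcodes, beyond counting error, and the lateral intervals overlapped. Cnp gave 60.9% (58.6 to 63.2) of the 1829 member UMIs of medial cells, against 48.3% (40.0 to 56.7) of the 147 in medial low barcodes. In the lateral library it gave 62.2% (59.9 to 64.5) of 1760 in cells, against 55.2% (47.2 to 63.0) of 163 in low barcodes. Mbp gave 14.9% in medial cells against 20.4% (14.2 to 27.8) in medial low barcodes, and 16.4% in lateral cells against 16.6% in lateral low barcodes. Mag gave 15.6% in medial cells against 21.1% in medial low barcodes, and 14.0% against 19.0% in the lateral library.

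UMIs of the members grew with the size of the barcode. Cells were ordered by their UMI total and split into 4 depth groups of equal size within each library. Medial cells held 0.0675, 0.0994, 0.146 and 0.199 Mbp UMIs per cell from the shallowest to the deepest group, and lateral cells 0.0607, 0.101, 0.147 and 0.191. The deepest group thus held 2.95 times (2.00 to 4.43) the Mbp UMIs per cell of the shallowest in the medial library and 3.14 times (2.13 to 4.74) in the lateral one. The cells' UMI totals differed 3.58-fold and 3.91-fold between the same groups. On the CPM scale Mbp was therefore nearly level, at 13.7, 10.9, 11.9 and 11.3 CPM in medial and 14.4, 12.5, 13.1 and 11.6 CPM in lateral groups.

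For the 9 genes together the level was 78.1, 74.3, 80.1 and 78.5 CPM in medial groups and 70.9, 76.0, 76.4 and 77.9 CPM in lateral groups. Cnp went beyond the cell total in the lateral library. Its CPM in the deepest lateral group was 1.32 times (1.06 to 1.67) that in the shallowest. In the medial library Cnp stood at 1.12 times (0.914 to 1.39). The lateral rise was not particular to Cnp. C1qa rose there too, at 1.18 times (1.16 to 1.19), which lies within the interval of Cnp. In the medial library the interval of C1qa, 0.988 to 1.02, included 1. The share of all genes that rose with depth was not counted. For Cryab the direction of the depth groups was not the same in the medial and lateral library. Its level was 7.04 CPM in the deepest against 5.33 CPM in the shallowest medial group, and 4.00 CPM in the deepest against 8.65 CPM in the shallowest lateral group. Only the lateral difference, a ratio of 0.462 (0.265 to 0.829), was beyond counting error, and a test of the difference between the libraries was not made.

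Near-empty barcodes hold little beside cells by definition, so levels per barcode are set beside the whole UMI total. Barcodes with more than 10 and up to 50 UMIs held 0.503 Mbp UMIs per 1000 barcodes in the medial library and 0.352 in the lateral one, where 1000 cells held 128 and 125. Their level per barcode was thus 0.392% (0.259 to 0.571) of that per cell in the medial library and 0.282% (0.177 to 0.427) in the lateral one, and their whole UMI total was 0.335% and 0.355% of that of a cell. Mag stood at 0.361% and 0.403%, Cnp at 0.217% and 0.263%, and Cryab at 0.333% and 0.372% in the medial and lateral library. Stmn2 stood at 3.97% (2.59 to 5.81) in the medial library and 5.23% (4.06 to 6.63) in the lateral one. Barcodes with more than 50 and up to 200 UMIs held 0.681 Mbp UMIs per 1000 barcodes in the medial library and 0.758 in the lateral one.

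**Figure D3:**
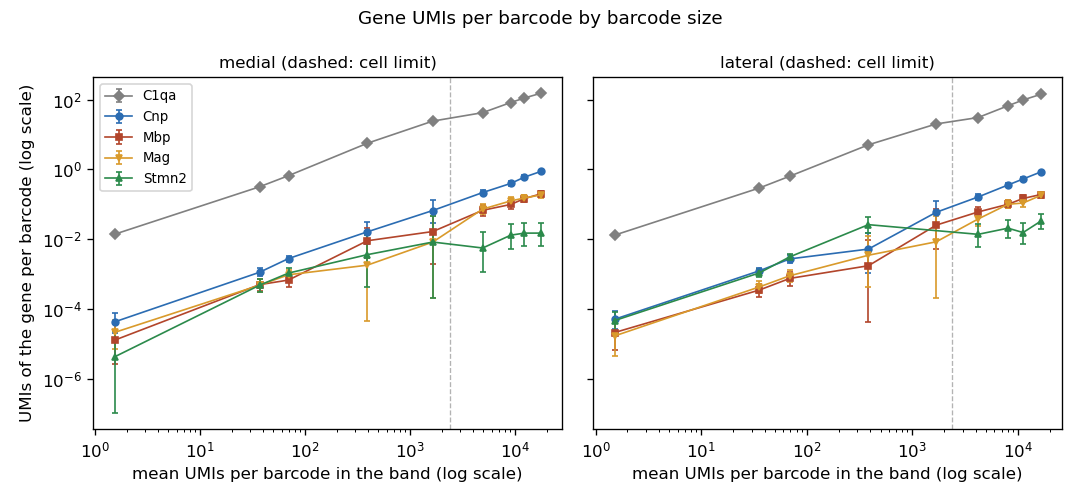
UMIs of a gene per barcode (vertical axis, log scale) against the mean UMI total of the barcodes in a band (horizontal axis, log scale), with 95% Poisson intervals; the 4 points right of the dashed cell limit are depth groups of cells. Points with 0 UMIs are not drawn. Cnp, Mbp and Mag climb with the barcode total alongside C1qa, and Mbp reaches 0.199 UMIs per cell in the medial library. Stmn2 lies between 0.00563 and 0.0150 UMIs per cell in medial cells, and the deepest group held 2.67 times (0.641 to 15.6) the UMIs per cell of the shallowest. In the lateral library, barcodes with more than 200 and up to 1000 UMIs held 0.0262 Stmn2 UMIs each (0.0147 to 0.0433). Lateral cells held 0.0208 each (0.0153 to 0.0276).

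The UMIs were spread thinly. Of the medial cells 1144 (53.7%) and of the lateral cells 1135 (49.2%) held at least 1 UMI of the 9 genes, and the richest cell held 7 in the medial library and 6 in the lateral one. No cell reached 10, and the largest share of a cell's UMIs was 0.0910% in the medial library and 0.0967% in the lateral one. An Mbp count of 2 or more occurred in 20 medial and 25 lateral cells, where an even CPM over cells gives 18.8 and 19.8. The variance of Mbp over its mean was 1.03 in medial and 1.14 in lateral cells. For Cnp, 214 medial and 207 lateral cells held 2 or more UMIs, where an even CPM gives 223 and 209.

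Cryab was more uneven than the others. It had 2 or more UMIs in 23 medial and 13 lateral cells, where an even CPM gives 6.38 and 4.23, and its variance over its mean was 1.46 in medial and 1.27 in lateral cells. For Mag the counts were 31 medial and 19 lateral cells, where an even CPM gives 20.5 and 14.8. Pairs of members occurred in a cell about as often as, or less often than, an even CPM gives. Mbp and Mag occurred together in 37 medial and 29 lateral cells, where an even CPM gives 37.1 and 32.4, and Mag and Cryab in 17 medial and 8 lateral cells, where it gives 21.8 and 15.2. UMIs of 3 different members occurred in 39 medial and 24 lateral cells, and of 4 in 1 medial and 0 lateral cells. Cells with 3 or more members had a median of 15504 UMIs in the medial library and 15493 in the lateral one, against 8948 and 8005 for cells with none of the members.

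Thinning each cell to 2400 UMIs, which left out no cell, brought the share with a UMI of any of the 9 genes to 16.8% (15.2 to 18.4) in the medial library and 16.7% (15.2 to 18.3) in the lateral one. Mbp was then found in 3.24% (2.53 to 4.08) of medial and 2.90% (2.26 to 3.67) of lateral cells, and Mag in 2.67% and 2.77%. Cnp was found in 10.7% of medial and 10.3% of lateral cells, and Cryab in 1.5% and 1.69%. Stmn2, a gene microglia should lack, was found in 0.375% (0.162 to 0.738) of medial and 0.347% (0.150 to 0.682) of lateral thinned cells. No second cell type was set apart in these sorted libraries to serve as a comparison for the shares.

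The medial and lateral libraries did not differ in the members beyond counting error. The log2 ratio of medial over lateral cells was -0.10 (-0.35 to 0.14) for Mbp and 0.19 (-0.06 to 0.44) for Mag. It was 0.00 (-0.12 to 0.12) for Cnp and 0.24 (-0.11 to 0.59) for Cryab. Of the 4 genes, 0 were past a ratio of 1.5 in either direction, where 3.10% of 11324 measured genes were at least 1.5-fold higher and 1.82% at least 1.5-fold lower in medial cells. In low barcodes 3 members were measured and 0 were past 1.5, where 4.46% of 7786 genes were higher and 4.55% lower in the medial library.

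Stmn2 and Tubb3 in low barcodes did differ between the regions. Stmn2 was at 11.6 CPM in medial and 30.8 CPM in lateral low barcodes, a ratio of 0.376 (0.233 to 0.588). For Tubb3 the values were 11.1 CPM and 39.3 CPM, a ratio of 0.283 (0.176 to 0.439). Mbp in the same barcodes was at 12.8 CPM in medial and 10.5 CPM in lateral ones, a ratio of 1.22 (0.702 to 2.14). With 1 library per region, the region cannot be told apart from the preparation of the library.

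The members were set against 6 microglial states. CPM was compared between the 20% of cells with the highest and the 20% with the lowest score for a list. These were 426 cells each in the medial library and 461 each in the lateral one. Some scores were small counts. By the MHC class II and cell cycle lists, the top group of either library began at 3 UMIs and the bottom group held only 0. By the interferon list the top group began at 8 UMIs and the bottom group ended at 2. Of 24 contrasts of the 4 detected genes per library, 3 medial and 2 lateral intervals lay above a ratio of 1, and 1 medial and 2 lateral ones below. Over all measured genes and the same 6 lists, 13.7% of medial and 13.6% of lateral contrasts lay above 1 and 14.8% and 13.4% below, so the members' counts were no larger than those shares give. Cnp and the interferon list, genes such as Isg15 and Irf7 that type I interferon induces, gave the one contrast that was above 1 in both libraries. The share of all genes above 1 in both libraries was not counted. Cnp also had the most UMIs of the 4 genes, which narrows its intervals. Cnp stood at 59.3 CPM in the top against 43.5 CPM in the bottom 20% of medial cells, a ratio of 1.36 (1.13 to 1.64). In the lateral library it stood at 58.9 CPM in the top against 41.3 CPM in the bottom 20%, a ratio of 1.42 (1.18 to 1.72).

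Beside that, Mag had ratios of 0.972 (0.677 to 1.39) in the medial library and 1.04 (0.678 to 1.59) in the lateral one for the interferon list. Mbp had 0.987 (0.669 to 1.46) in the medial library and 0.651 (0.419 to 0.998) in the lateral one. Cryab had 1.85 (1.09 to 3.21) in the medial library and 0.761 (0.418 to 1.36) in the lateral one. Counted at a ratio of 1.3, 2 of the 4 genes were higher in the top 20% of medial cells, where 8.21% of 9213 genes were, and 0 were lower, where 9.19% were. In the lateral library 1 was higher, where 8.86% of 9220 genes were, and 2 were lower, where 9.60% were. These shares include genes of few UMIs, whose ratios scatter widely, and this count was added after the values were seen.

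The other states gave no contrast that was beyond counting error in both libraries. Cnp stood at 40.8 CPM in the top against 57.1 CPM in the bottom 20% of medial cells by the damage and lipid list, genes such as Spp1 and Gpnmb that microglia raise near injury. That ratio was 0.715 (0.585 to 0.872), and the lateral one was 0.951 (0.780 to 1.16). For Mbp the same list gave 1.3 (0.861 to 1.97) in the medial library and 0.668 (0.456 to 0.977) in the lateral one. By the homeostatic list Cnp had a ratio of 1.31 (1.08 to 1.59) in the medial library and 1.11 (0.915 to 1.35) in the lateral one. By the cell cycle list it had 1.19 (0.994 to 1.43) and 1.24 (1.03 to 1.49). Some top and bottom groups also differed in median UMIs per cell. By the damage and lipid list the medians were 10823 and 7796 in the lateral library, but 9597.5 and 9904.5 in the medial one. By the cell cycle list they were 12162 and 10418.5 in the medial and 11066 and 9267 in the lateral library. A part of depth in the ratios was not tested. The contrasts of the MHC class II and immediate early lists all had intervals that included 1.

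**Figure D4:**
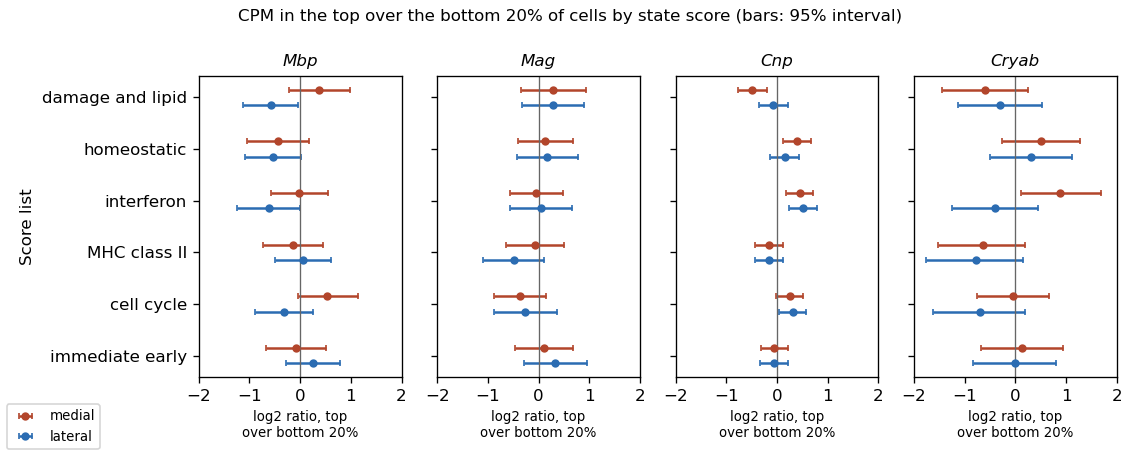
The log2 ratio of CPM in the top over the bottom 20% of cells (horizontal axis) by each of 6 state scores (vertical axis) for the 4 detected genes, in the medial (red) and lateral (blue) library, with 95% conditional binomial intervals. The interferon contrast of Cnp lies above 0 in both libraries, at 0.45 and 0.51. Mbp changes side between the libraries by the damage and lipid, MHC class II, cell cycle and immediate early lists. Cryab does so by the interferon and immediate early lists only.

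The genes whose level moved most like Mbp were sought among 6181 genes over 12 points, the 2 libraries by 6 barcode groups from low barcodes to deep cells. Likeness was the root mean square distance of centred log2(CPM + 1). Slc31a2, a copper transporter family gene, came first at 0.0853, followed by Epb41l3, a membrane skeleton gene, at 0.101 and Ctage5, a gene of secretory cargo export, at 0.109. Slc25a45 at 0.111 and Ubap1 at 0.112 came next, where the median gene was at 0.343. Cnp ranked 2083 at 0.298 and Mag ranked 5652 at 0.529. The points of a library share its depth, and groups with few Mbp UMIs add counting noise.

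The transcripts of the members are largely their own in sequence when read in their own direction. Of the stretches of 57 bases, the length of the transcript read, that the annotated transcripts of a gene hold, 0.252% of those of Mbp occurred in transcripts of another gene too. For Mag the share was 0.0233%, for Mobp 0.380% and for Ermn 0.531%, and it was 0 for Mog, Cnp, Mal, Cldn11 and Cryab. Reverse complements were not searched. Bases shared with a gene on the opposite strand, such as the 154 of Cnp with Dnajc7 and the 252 of Cryab with Hspb2, are thus not counted. This check was added after the values were seen.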

How the data were processed

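The authors deposited whole-number UMI counts of 27998 genes in each of 737280 barcodes of a library, with no normalisation in the values. The submitters' processing notes name mm10, STAR and Cell Ranger 2.0.1; the annotation version and any use of strand in counting were not given in the sources used here. Total counts were 28660496 in the medial library and 27955414 in the lateral one.

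Counts were summed by symbol with Python 3.11.15, numpy 2.4.6, scipy 1.17.1 and pandas 2.3.3. Cells and low barcodes were defined as stated, 3 barcodes per library fell to the mitochondrial limit, and no doublet caller was run. CPM used all UMIs of the compartment. Ratios have exact conditional binomial 95% intervals, tested on simulated data. State scores were the UMIs of a list in cells thinned to 2400 UMIs. Positions and overlaps came from GENCODE M21 and upstream sequences from RefSeq. Alternatives were other limits on cells, low barcodes, mitochondrial share and counts, scalings, and leaving out groups of cells. Besides the members, the text names the 3 highest and 3 lowest measured oligodendrocyte genes, the gene with most UMIs of a marker list and the 5 genes most like Mbp; others are examples. The members and lists were chosen with earlier results of these data known.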

Additional observations from a re-analysis of the deposited data

Results flagged for a closer look

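The Mbp ratio of cells over low barcodes pointed in opposite directions in the 2 libraries, with a log2 value of -0.14 in the medial library and 0.25 in the lateral one. Both intervals included 0, and the difference between the libraries was not tested. The pattern turned with the limit on low barcodes: at most 10 UMIs gave 0.47 in the medial library and -0.18 in the lateral one, and at most 100 UMIs gave 0.12 and 0.24. The values rest on 30 Mbp UMIs in medial and 27 in lateral low barcodes.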

How the results depend on the processing

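Over 15 other settings 240 values were recomputed; 226 stayed within the interval first reported, or for a count within 1.5 times, and 14 did not. Of the 170 log2 ratios, 14 changed sign, all with an interval that included 0 at the start, and 6 ratios that had an interval above 0 lost it. With low barcodes of at most 10 UMIs, Mbp stood at 0.47 (-1.10 to 2.75) in the medial library and -0.18 (-1.42 to 1.45) in the lateral one, so its signs swapped, and the intervals of Cnp came to include 0, at 0.76 (-0.13 to 1.82) and 0.48 (-0.33 to 1.44). The interval of the 9 genes together came to include 0 there, at 0.47 (-0.16 to 1.19) and 0.29 (-0.31 to 0.97), and after centring on the median gene, at 0.21 (-0.04 to 0.46) and 0.16 (-0.07 to 0.40). Taking cells from 5000 UMIs gave a share of cells with a member UMI of 57.8% in the medial library and 55.1% in the lateral one, and thinning to 2400 UMIs gave 16.8% and 16.7%. With no count minimum, 1 medial and 2 lateral members were past 2-fold between cells and low barcodes, through single UMIs of Cldn11 and Mobp. Splitting the cells into 2 depth groups in place of 4 gave 2.23 in the medial library and 2.35 in the lateral one for summed member UMIs per cell, deepest over shallowest, as those groups are less far apart in depth. No paired analysis was possible because each region has 1 library. Low barcodes hold 14 to 90 UMIs of a detected member, which limits each ratio over them.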
